A study of Mus musculus with 3 samples.

Results

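The genes described here encode the enzymes that burn fatty acids by beta-oxidation, with the proteins that activate fatty acids, carry them into mitochondria and set how much enters. They are 37 genes chosen by name, and 46 of the 39429 probes that were not controls belonged to them. All 46 probes were well above background on every knockout array, and 45 of them on every control array, so all 37 genes were among the 17460 genes tested and none was gained or lost through the filter on dim probes.

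Lower-limb skeletal muscle of control and mFoxO1KO mice was compared pairwise on 3 dual-channel Agilent arrays. Each array carried 1 control sample labelled with Cy3 and 1 knockout sample labelled with Cy5. The number of mice behind each sample is not known here. The mFoxO1KO mice carried an inducible deletion of Foxo1 specific to skeletal muscle; the promoter that drives it, the exact alleles of the controls and whether RNA of several mice was pooled are not given in the sources used here. All mice were male C57BL/6, and controls as well as knockouts ate an AIN93G diet with doxycycline at 0.625 g/kg, begun at 8 weeks and continued to 14 weeks. The comparison asks which transcripts differ in muscle in which Foxo1, a forkhead transcription factor gene, was deleted. Because no array had the dyes swapped, genotype and probe-specific dye effects cannot be told apart in any ratio below.

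Beta-oxidation shortens a fatty acid by a pair of carbons per turn. Acyl-CoA synthetases first attach the fatty acid to coenzyme A, the carnitine shuttle passes the acyl group into the mitochondrion, and a dehydrogenase, a hydratase, a second dehydrogenase and a thiolase then act in turn, with the electrons of the first step handed to the respiratory chain by the electron transfer flavoprotein. Peroxisomes run a related set of reactions on very long and unusual fatty acids. Resting muscle depends heavily on this pathway, and FoxO1 is known as one of the factors that favour fatty acid use in fasted muscle.

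The deletion mark and the tissue were checked first. The brighter Foxo1 probe had log2 ratios of knockout over control of -1.50, -2.42 and -2.27 on the 3 arrays, or 23.9% of the control level, though whether the probes lie in the deleted part is not known here. The dimmer Foxo1 probe had a smaller loss, with -0.70, -1.64 and -1.84 on the arrays, or 38.1% of the control level. Markers of muscle were present, with all 15 tested and a median log2 ratio of 0.03. Each ratio given below is the log2 of Cy5 over Cy3 after background correction and loess normalisation, so 0 means no difference and 1 means 2-fold, and an added offset makes ratios of dim probes smaller than the true change. The number of arrays limits the precision. The p-values and intervals come from limma, which combines each gene's variance between these 3 arrays with a variance shared by all genes tested. They thus do not measure a gene's own spread alone. Acox3, for example, had an SD of 0.0048 over the arrays but an interval from -0.0016 to 0.277 (limma, unadjusted p = 0.0518).

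No beta-oxidation gene passed an adjusted p of 0.05 (limma, Benjamini-Hochberg over 17460 genes), against 2.75% of all genes tested (2.06% higher and 0.699% lower). Of the genes above the median intensity, where 31 of the 37 lay, 3.01% passed in this fit of all genes, while a separate fit of those genes alone called 9 of 8730 (0.103%). At an unadjusted p under 0.05 (limma) there were 10 of 37, all 10 higher in the knockout channel, where 15.3% of all genes were higher and 11.5% lower at that level. Most differences were small: 27 of the 37 mean ratios lay within 0.2 of 0, a share of 73.0% that compares with 74.0% of all genes. Ehhadh, Ucp3 and Acsl1 exceeded 0.5 (8.11%, against 4.87% of all genes beyond 0.5 either way).

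The direction was mostly the same. Of the 37 means, 31 were above 0 (83.8%, against 51.8% of all genes), and 21 genes were above 0 on every array (56.8%, against 27.9%). Acsl6, Decr2 and Acot13 were below 0 on every array (8.11%, against 24.5%). The median over the 37 was 0.12, with array medians of 0.12, 0.08 and 0.15, beside a median of 0.01 over all genes tested. In 9 of the 37 every knockout level lay above every control level (14.0% of all genes), and in 0 of the 37 every knockout level lay below (11.8% of all genes). Genes of one pathway are not independent of each other, so these shares describe the list and carry no test. The 95% interval of 36 of the 37 lay within a 2-fold change either way (97.3%, against 97% of all genes). That of 31 lay within 0.5 on the log2 scale (83.8%, against 83.1% of all genes). Both shares were near those of all genes, and the intervals (limma) are not adjusted for the number of genes. The 1 gene outside the 2-fold range was Ehhadh.

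**Figure D1:**
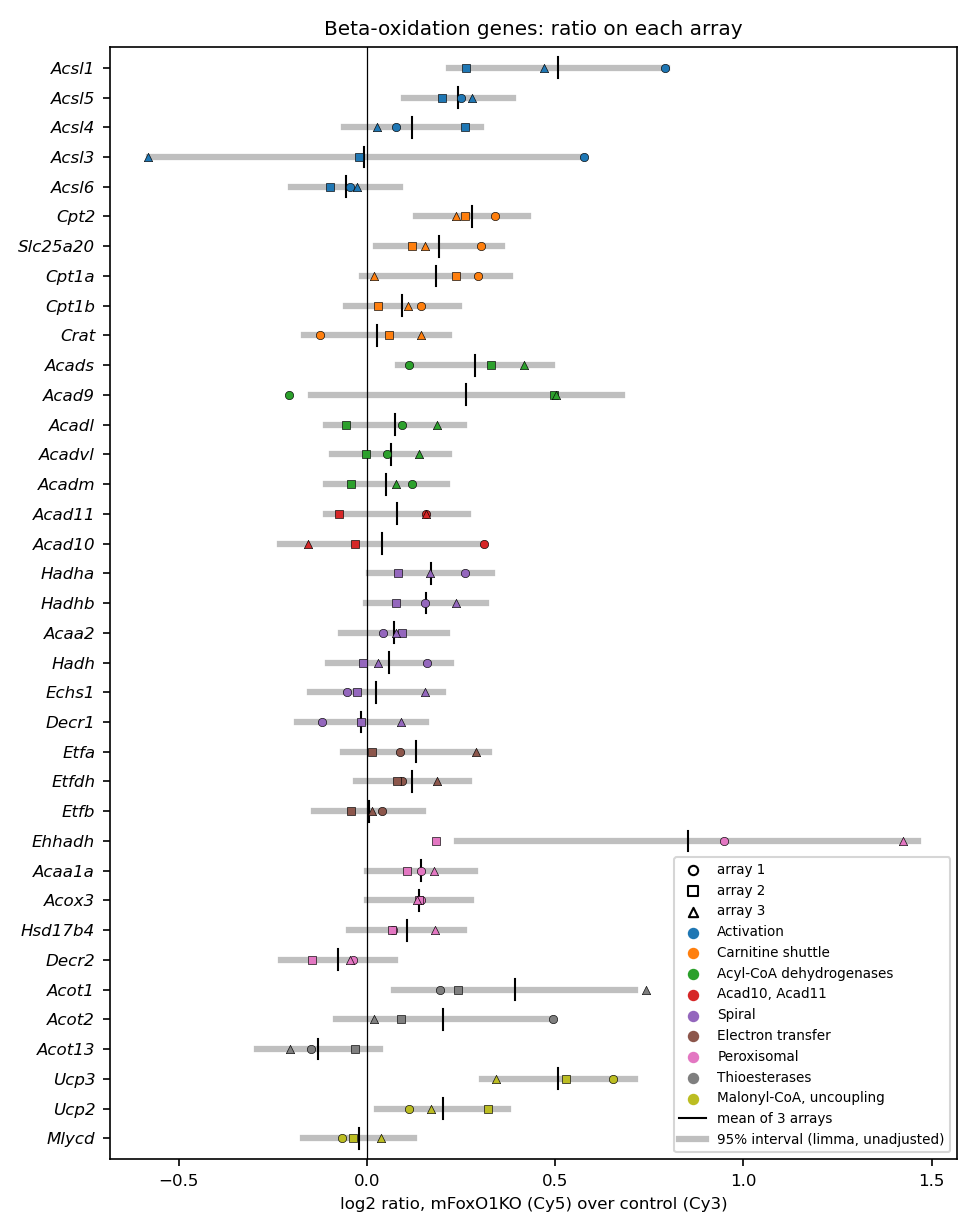
Log2 ratio of mFoxO1KO over control for each of the 37 genes, ordered by step, with 1 symbol per array, a black tick at the mean and a grey bar for the 95% interval of the fit (limma, unadjusted). Most means lie just right of 0, 31 of 37 above it, and Ehhadh, Ucp3 and Acsl1 stand farthest out.

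Ehhadh, the peroxisomal bifunctional enzyme that hydrates and then oxidises the acyl chain, had the largest mean and also the largest spread. Its normalised log2 intensities were 9.33, 9.09 and 9.30 in control and 10.28, 9.28 and 10.72 in knockout muscle. On array 2 the knockout level lay within the range of the controls, and on arrays 1 and 3 it lay well above them, so the groups overlapped. The ratios of 0.95, 0.18 and 1.42 gave a mean of 0.85 ± 0.63 (SD, n = 3 arrays), or 1.80-fold (limma, adjusted p = 0.112). Without replicate 2 the mean was 1.19 and without replicate 3 it was 0.57. The gene is expressed strongly in liver and kidney and is a known target of the nuclear receptor PPAR alpha.

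Ucp3, the uncoupling protein of muscle mitochondria, came nearest to the threshold. Its log2 intensities were 11.58, 11.94 and 12.01 in control and 12.23, 12.47 and 12.35 in knockout muscle. Every knockout level was above every control level. The mean ratio was 0.51 ± 0.16, or 1.42-fold (limma, adjusted p = 0.0505). Under 17 alternatives, which include each array left out, its adjusted p (limma) ranged from 0.00888 to 0.203 and passed in 5. The highest value came without replicate 2, and with all arrays kept the highest was 0.112. In a fit of every probe on its own it was 0.0492. With all arrays kept, the choice of processing thus decides on which side of the threshold this gene falls. The second Ucp3 probe had a ratio of 0.24 ± 0.12, with 0.36, 0.25 and 0.11 on the arrays, the same order as the brighter probe at a lower size. Ucp2, its more widely expressed neighbour on the chromosome, had log2 intensities of 7.59, 7.81 and 7.94 in control and 7.70, 8.13 and 8.11 in knockout muscle. The lowest knockout level lay within the range of the controls. The ratios of 0.11, 0.32 and 0.17 gave a mean of 0.20 ± 0.11 (limma, adjusted p = 0.151).

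The promoter of Ucp3 is shown because this gene came nearest to the threshold and its window holds 2 copies of the hexamer AGGTCA, which PPAR and other nuclear receptors recognise. The window runs from 250 bases before to 50 after the start in RefSeq (GRCm38.p6, chr7:100472741-100473040, plus strand), 5′ to 3′, with the hexamers in capitals:
Ucp3: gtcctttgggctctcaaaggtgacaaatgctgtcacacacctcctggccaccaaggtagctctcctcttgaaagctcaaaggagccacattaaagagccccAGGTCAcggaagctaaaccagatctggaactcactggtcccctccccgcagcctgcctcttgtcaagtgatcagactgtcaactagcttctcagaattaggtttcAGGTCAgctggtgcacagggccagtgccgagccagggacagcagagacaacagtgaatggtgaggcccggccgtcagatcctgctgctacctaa
The table held 33 promoter windows for 30 of the 37 genes. Searched on both strands, AGGTCA was found in 6 of the 33 (Acadm, Acadvl, Acsl6, Cpt1a, Echs1 and Ucp3), or 18.2%, against 16.3% of all 32851 windows of this length. A window of Acsl6 also held 2 copies, and that gene had a mean ratio of -0.06, with 0.04 on its dimmer probe. How many of all windows hold 2 copies was not counted. The direct repeat of this hexamer with 1 base between the copies, the PPAR-RXR element, was in 0 of the 33 and in 0.0396% of all windows, and the FoxO core GTAAACA was in 0 of the 33 and in 3.65% of all. No match says only that these letters are not in this window.

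Among the synthetases that activate fatty acids, Acsl1, the main form of muscle and fat, had the largest ratio. Its log2 intensities were 14.27, 14.36 and 14.34 in control and 15.06, 14.62 and 14.80 in knockout muscle. The control levels lay close together, and every knockout level lay above them. The ratios of 0.79, 0.26 and 0.47 gave a mean of 0.51 ± 0.27, or 1.42-fold (limma, adjusted p = 0.0815). Its second probe had 1.10, 0.38 and 0.70 on the arrays, a mean of 0.73 ± 0.36 in the same array order (probe-level adjusted p = 0.0666, limma).

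Acsl5, a synthetase also linked to triglyceride formation, had a smaller ratio on a dim probe. Its log2 intensities were 7.36, 7.35 and 7.21 in control and 7.60, 7.55 and 7.49 in knockout muscle, without overlap. The mean ratio was 0.24 ± 0.04 (limma, adjusted p = 0.0860). Acsl4, which prefers arachidonic acid, had 0.12 ± 0.12, and Acsl6, a form best known from brain, had -0.06 ± 0.04, while its dimmer probe had 0.04. Acsl3, a synthetase of lipid droplets, had ratios of 0.58, -0.02 and -0.58, which cancel to -0.01 and leave a 95% interval from -0.58 to 0.56. Of the 5 synthetases, 3 means were above 0 and 2 below, and the interval of Acsl3 was the widest among them.

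In the carnitine shuttle all 5 means were above 0, between 0.03 for Crat, which exchanges short acyl groups, and 0.28 for Cpt2. Cpt2 returns the acyl group from carnitine to coenzyme A on the inner membrane. Its log2 intensities were 11.72, 11.25 and 11.19 in control and 12.06, 11.52 and 11.42 in knockout muscle. The groups overlapped because both channels of array 1 were brighter, but each pair differed by a like amount. The ratios of 0.34, 0.26 and 0.24 gave a mean of 0.28 ± 0.05 (limma, adjusted p = 0.0738), and the second probe had 0.32 ± 0.03.

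Cpt1b, the muscle form of the enzyme that commits fatty acids to oxidation, differed little. Its log2 intensities were 13.15, 13.21 and 13.23 in control and 13.29, 13.24 and 13.34 in knockout muscle. The groups did not overlap, yet the mean ratio was only 0.09 ± 0.06, with a 95% interval from -0.06 to 0.24 (limma, adjusted p = 0.351). The dimmer Cpt1b probe had 0.19 ± 0.07. Cpt1a, the form of liver and many other tissues, had 0.18 ± 0.15, and the carnitine carrier gene Slc25a20 had 0.19 ± 0.10 (limma, adjusted p of 0.207 and 0.152). Mlycd, which removes malonyl-CoA, the inhibitor of both Cpt1 enzymes, had -0.02 ± 0.05.

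The acyl-CoA dehydrogenases catalyse the first step of each turn, each on a range of chain lengths. The long, very long and medium chain enzymes Acadl, Acadvl and Acadm had 0.07 ± 0.12, 0.06 ± 0.07 and 0.05 ± 0.08, each with array 2 below 0. Acads, the short chain enzyme, had the highest ratio of them. Its log2 intensities were 8.91, 8.66 and 8.91 in control and 9.02, 8.99 and 9.32 in knockout muscle, without overlap. The mean ratio was 0.29 ± 0.16 (limma, adjusted p = 0.111).

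Acad9, which also helps assemble respiratory complex I, had -0.21, 0.50 and 0.50 on the arrays, a mean of 0.26 ± 0.41 (limma, adjusted p = 0.342). Array 1 alone was below 0, and without replicate 1 the mean was 0.50 and passed (limma, adjusted p = 0.0475). In that fit 2.49% of all genes passed. The array left out is the one that differed, so this pass adds no support. The 17 alternatives spanned adjusted p of 0.0475 to 0.736 (limma). Acad10 and Acad11, less studied relatives, had 0.04 ± 0.24 and 0.08 ± 0.13.

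The 6 enzymes of the later steps had means from -0.02 for Decr1, which handles double bonds, to 0.17 for Hadha. Echs1 (hydratase), Hadh (hydroxyacyl-CoA dehydrogenase) and Acaa2 (thiolase) had 0.02, 0.06 and 0.07, with upper 95% bounds of 0.20, 0.22 and 0.21. The dimmer Decr1 probe had 0.08. The subunits of the electron transfer flavoprotein, Etfa and Etfb, had 0.13 ± 0.14 and 0.0037 ± 0.042, and its oxidoreductase Etfdh had 0.12 ± 0.06. The dimmer Etfa probe had 0.29 ± 0.16. None of these 9 genes passed, with adjusted p from 0.176 to 0.974 (limma).

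Hadha and Hadhb, the alpha and beta subunits of the mitochondrial trifunctional protein, had near-equal ratios. Hadha had 0.26, 0.08 and 0.17, a mean of 0.17 ± 0.09, and Hadhb had 0.15, 0.08 and 0.24, a mean of 0.16 ± 0.08 (limma, adjusted p of 0.176 and 0.193). On both genes array 2 was lowest. They are shown together because they start 273 bases apart on opposite strands, so that their promoter windows share 228 bases. The Hadhb window (GRCm38.p6, chr5:30155003-30155302, plus strand) is printed 5′ to 3′ with the part shared with the Hadha window in capitals:
Hadhb: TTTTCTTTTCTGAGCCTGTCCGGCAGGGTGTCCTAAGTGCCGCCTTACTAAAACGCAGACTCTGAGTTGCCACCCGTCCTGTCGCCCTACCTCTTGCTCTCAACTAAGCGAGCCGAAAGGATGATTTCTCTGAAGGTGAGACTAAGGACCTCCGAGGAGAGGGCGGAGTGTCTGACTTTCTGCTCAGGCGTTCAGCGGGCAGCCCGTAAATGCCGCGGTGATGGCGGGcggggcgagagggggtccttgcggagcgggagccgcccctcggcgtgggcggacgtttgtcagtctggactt
None of the 3 motifs above matched in either window of this pair.

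**Figure D2:**
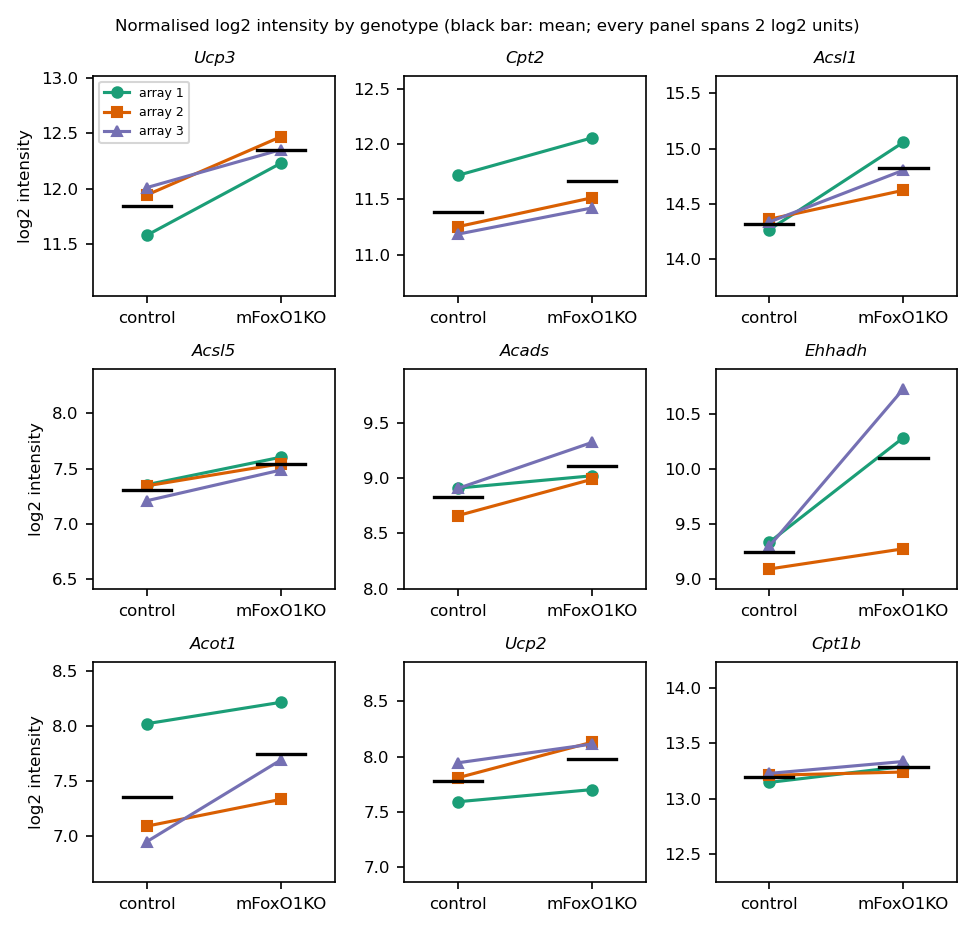
Normalised log2 intensity in control and mFoxO1KO muscle for the 8 genes with the smallest unadjusted p and for Cpt1b, with the levels of 1 array joined by a line and black bars at the means. Every line slopes upward, steeply for Ehhadh on arrays 1 and 3 and hardly for Cpt1b; levels of different genes cannot be compared with each other.

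In the peroxisome, apart from Ehhadh, the ratios were small. Acaa1a, a thiolase, had 0.14, 0.11 and 0.18, and Acox3, an oxidase for branched chains, had 0.14, 0.14 and 0.13, with means of 0.14 ± 0.03 and 0.14 ± 0.0048 (limma, adjusted p of 0.188 and 0.190). Neither gene's groups overlapped. The dimmer Acox3 probe had a mean of -0.0029 ± 0.071, on the other side of 0, with 1 array below it. Hsd17b4, the second bifunctional enzyme, had 0.10 ± 0.07, and Decr2, which handles double bonds, had -0.08 ± 0.06.

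The thioesterases split acyl-CoA back into fatty acid and coenzyme A. Acot1, the cytosolic form, had log2 intensities of 8.02, 7.09 and 6.95 in control and 8.21, 7.33 and 7.69 in knockout muscle. The array 1 control was above 2 of the knockout levels, so the groups overlapped. The ratios of 0.19, 0.24 and 0.74 gave a mean of 0.39 ± 0.30 (limma, adjusted p = 0.138). On this dim probe the mean was 0.49 with an offset of 16 and 0.73 with the deposited log ratio. Acot2, the closely related mitochondrial form, had 0.49, 0.09 and 0.02, high on another array, with a mean of 0.20 ± 0.26. Both genes have near-identical relatives, and how far their probes tell them apart was not tested. Acot13, a mitochondrial form of another fold, had -0.13 ± 0.09, the lowest mean of the 37.

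The activating, mitochondrial and peroxisomal steps had like medians. The median ratio was 0.12 over the 5 activating synthetases, 0.09 over 19 mitochondrial enzymes and 0.14 over 5 peroxisomal enzymes. The array medians were 0.25, 0.20 and 0.03 for activation, 0.09, 0.06 and 0.15 for the mitochondrial steps and 0.14, 0.11 and 0.18 for the peroxisomal steps. The ranges of the 3 steps over the arrays overlapped, and the order of the steps was not the same on every array. Mitochondrial means were above 0 for 18 of 19 genes, and none of the 29 genes passed the test. Acad10, Acad11, the thioesterases, Mlycd and the uncoupling proteins were left outside these 3 steps.

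**Figure D3:**
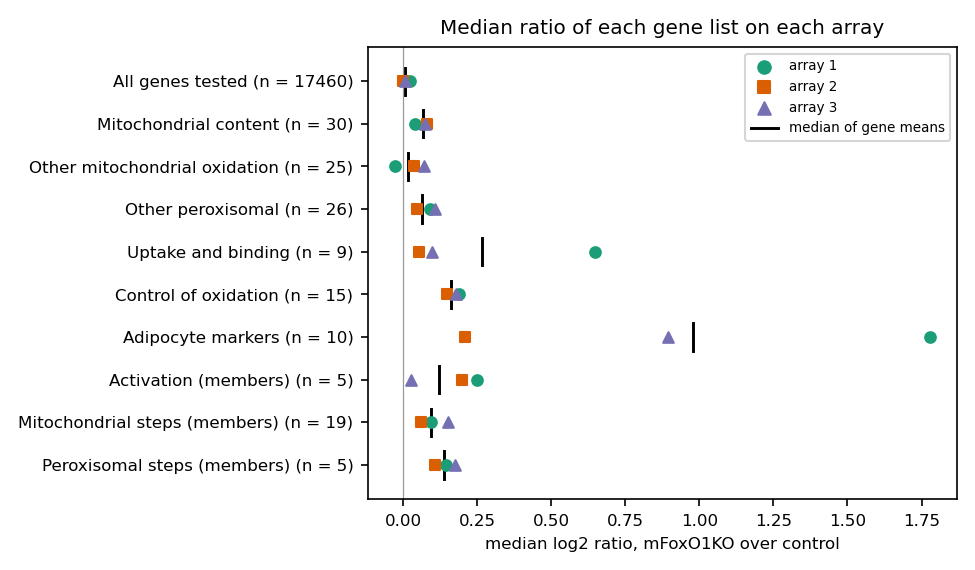
Median log2 ratio of mFoxO1KO over control for the 3 sets of steps, for neighbouring gene lists and for all genes tested, with 1 symbol per array and a black tick at the median of the gene means. The 3 sets of steps lie between 0.03 and 0.25 on every array, while adipocyte markers reach 1.78 on array 1.

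Of 25 further mitochondrial genes none passed, with 14 means above 0 and a median of 0.02. The smallest p-values there belonged to Acot11, a thioesterase (0.27 ± 0.11), and Eci1, which moves double bonds (0.25 ± 0.11). Of 26 further peroxisomal genes none passed either, with 18 above 0 and a median of 0.06. Acaa1b, a thiolase next of kin to Acaa1a, had 0.32 ± 0.03. Of 30 genes that track mitochondrial content, 20 were above 0, the median was 0.07, and Slc25a4, the muscle adenine nucleotide carrier, rose by 0.44 ± 0.03 (limma, adjusted p = 0.0423).

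Of 15 genes that control oxidation 3 rose, none fell and 12 did not pass, with a median of 0.16. At an unadjusted p under 0.05 (limma), 5 were higher and 3 lower. Ppara, the nuclear receptor that activates many of the genes above, had 0.77, 0.90 and 0.94 on the arrays and rose by 0.87 ± 0.09 (limma, adjusted p = 0.0179), and its dimmer probes had 0.82 and 0.26. The coactivator Ppargc1a rose by 1.35 ± 0.52 and Acaca, an acetyl-CoA carboxylase that makes malonyl-CoA, by 0.66 ± 0.15 (limma, adjusted p of 0.0490 and 0.0392). The other Acaca probes were above background on no control array and had 0.01 and 0.10. The 3 lower were Prkaa2 and Prkaa1, the catalytic subunits of the energy sensor AMPK, with -0.38 ± 0.14 and -0.19 ± 0.10, and Pdk4, a kinase that holds back glucose oxidation, with -0.42 ± 0.33 (limma, adjusted p of 0.0680, 0.159 and 0.138). All 3 were below 0 on every array. In ketone use, Oxct1, which activates acetoacetate, fell by 0.49 ± 0.11 (limma, adjusted p = 0.0475), 1 of 4 genes, while Bdh1 had -0.36, 1.20 and 1.16. Of 9 genes of fatty acid uptake and binding none passed and 9 means were above 0, but only 4 genes were above 0 on every array. The median was 0.27, with unequal array medians of 0.65, 0.05 and 0.10. The largest means were those of Lpl (0.79 ± 0.37) and the transporter gene Slc27a1 (0.69 ± 0.38).

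Fat cell markers had ratios above 0 that were unequal between arrays. All 10 tested of 11 were above 0, with array medians of 1.78, 0.21 and 0.89, Lep was not tested, and none of the 10 passed. Their summed intensity was 81078 to 151163 in control and 159951 to 253132 in knockout muscle. Lipe and Cidec had 0.53 ± 0.24 and 2.00 ± 1.10. Of 6 brown adipocyte markers, 4 were tested, with 3 means above 0 and 1 below. Slc27a2 had 1.23 ± 0.38 (limma, adjusted p = 0.0401), but it was above background on 1 of 3 control arrays and entered the test through the knockout channel alone, so its size is not well measured. Cidea had 3.12 ± 1.55. The remaining tested markers, Cox8b and Otop1, lay near 0, with 0.09 ± 0.10 and -0.07 ± 0.16. Ucp1 and Elovl3 were not tested, because their probes did not pass the filter. The Ucp1 probe, above background on 2 arrays in each channel, had 2.53, 0.32 and 2.12. The Elovl3 probe, above background on 0 control and 2 knockout arrays, had 0.38, 0.18 and 0.70. In bulk tissue, more cells of a type and more RNA per cell cannot be told apart. Array 2 was the lowest of the 3 for 19 of the 37 beta-oxidation genes (51.4%, against 32.3% of all genes), as it was for the adipocyte median. The whole order of that median, array 1 highest and array 2 lowest, was found in 8 of the 37 (21.6%), against 18.7% of all genes. Acsl1 followed the whole order on each of its probes, while Ehhadh was lowest on array 2 but highest on array 3. Ucp3, Cpt2 and Acads were not lowest on array 2. The part of fat cells in these ratios was not tested.

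Endothelial, fibroblast and macrophage markers had medians of 0.08, 0.10 and 0.16 over 6, 6 and 4 genes, and none passed. The smallest p-values there belonged to Pecam1 (0.35 ± 0.08) and Tek (0.12 ± 0.10), to Pdgfra (0.25 ± 0.11) and Col1a2 (0.19 ± 0.27), and to Mrc1 (0.46 ± 0.43) and Lyz2 (0.15 ± 0.19). Slow-fibre genes had a median of -0.04 over 8 genes with none past the threshold, and Atp2a2 had 0.28 ± 0.08 and Myh7 -0.47 ± 0.38. Among the 15 muscle markers, Mb, the myoglobin gene, rose by 0.57 ± 0.14 (limma, adjusted p = 0.0449), and Neb had -0.49 ± 0.16.

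How far the members' values move with the processing differed between genes. The direction of the 8 genes with the smallest p and of Cpt1b held under all 17 gene-level alternatives that gave a value. Median centring in place of loess raised the median of all genes to 0.16 and that of the 37 to 0.35, turned all 6 means that lay below 0 to above it, and called Acsl1, Ehhadh and Ucp3, all higher (limma, adjusted p of 0.00858, 0.00933 and 0.00888). Relative to all genes the 37 then stood 0.19 higher, beside 0.11 with loess.

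**Figure D4:**
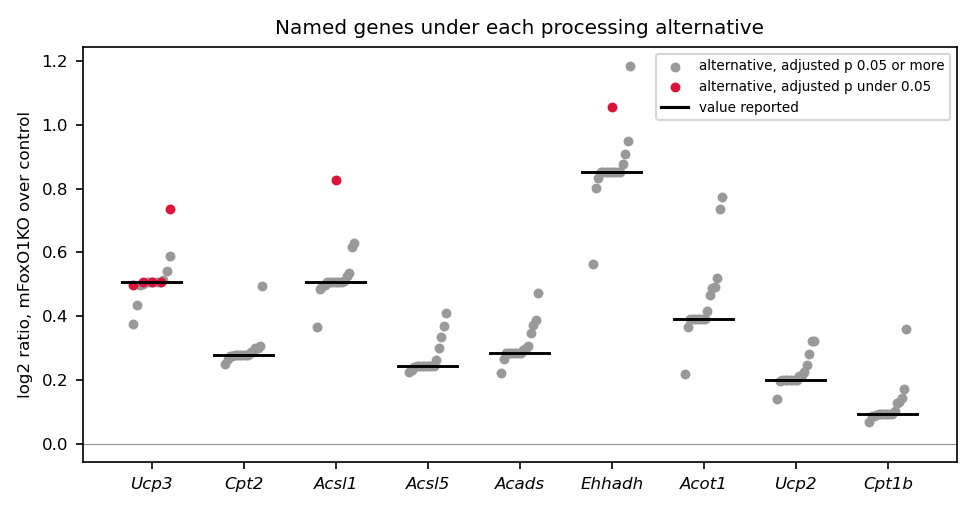
Mean log2 ratio of mFoxO1KO over control of 9 genes under the processing alternatives, fits with 1 array left out among them. Red points mark an adjusted p under 0.05 (limma), and a black bar marks the value reported. All points lie above 0, Ucp3 has 5 red points, Acsl1 and Ehhadh have 1 each, and the others have none.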

How the data were processed

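Each array's deposited file holds, per the file headers, the median intensity of every spot and its local background as scanned, and intensity values processed by Agilent Feature Extraction 11.5.1.1 with their log10 ratio of Cy5 over Cy3. The submitters' processing notes name version 9.3.2.1. Median intensity values were corrected with normexp (offset 50) and normalised by loess in limma 3.58.1 (R 4.3.3), with control spots at weight 0 and 281 to 319 outlier spots per array left out. The median Cy3 signal was 90.5 to 97 and the median Cy5 signal 99 to 102, and no spot was saturated. Levels are log2 intensity after Aquantile scaling.

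A probe was kept if well above background in one channel on all 3 arrays, and a gene took its brightest probe. Symbols came from accessions matched to RefSeq (GRCm38.p6), for 27508 of 39429 probes. The files name genes by accession alone. Ratios were tested against 0 with an intercept-only limma fit with moderated variance over 17460 genes, with Benjamini-Hochberg adjusted p under 0.05. The pairing is that of the shared array. Errors are SD over 3 arrays. On simulated ratios the fit recovered 30 of 50 genes changed 1.5-fold, 35 of 50 changed 2-fold, 48 of 50 changed 4-fold and 49 of 50 changed 8-fold. The simulated noise was independent, normal and centred on 0, with each gene's SD over the 3 arrays. In the data the ratios over all genes correlated between arrays at 0.51 to 0.54. These shares are thus not the power of the fit on the real ratios, which was not tested. Genes with full values were the 8 members with the smallest p (Ucp3 among them) and Cpt1b, and in other lists those past the threshold and the 2 with the smallest p, of which some are not reported here; Acad9, Acsl3, Hadha, Hadhb, Prkaa1, Prkaa2 and Pdk4, and further examples, were chosen after their values were seen. The members and lists were chosen with earlier results of these data known. Alternatives covered background, signal, dye normalisation, filter, probe choice, variance, channel pairing and each array left out.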

Additional observations from a re-analysis of the deposited data

How the results depend on the processing

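The count of beta-oxidation genes past the threshold, 0, was 3 with median centring in place of loess (Acsl1, Ehhadh and Ucp3), and 1 with scale normalisation between arrays, without a filter, with every probe on its own, with an intensity trend in the variance and with robust variance (each time Ucp3). Leaving out each array gave 0 to 1 (Acad9, without replicate 1). The median of the 37 genes, 0.12, was 0.17 with the software's processed signals and 0.35 with median centring, and 0.12 to 0.14 without each array. The mitochondrial median was 0.17 and 0.38 under the same settings and 0.07 to 0.14 without each array. The activation median was 0.33 with median centring and 0.05 to 0.22 without each array. The peroxisomal median was 0.34 with median centring, 0.097 with the deposited log ratio and 0.13 to 0.14 without each array. The count over all genes, 481, was 274 without background subtraction, 253 with an offset of 16, 212 with the deposited log ratio, 1205 with median centring (1154 higher and 51 lower, beside 359 and 122), 842 with scale normalisation, 747 without a filter, 55 under a filter that asks for signal over background in each channel, 9 in a fit of only the genes above the median intensity and 216 with separate channels and no replicate block. With the array as a replicate block the separate channels gave the same 481. Without each array it was 50 to 434, 50 without replicate 2 and 154 without replicate 3. In the fit of all genes, 3.01% of genes above the median intensity and 2.5% of those below it passed.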
